A study of Mus musculus with 37 samples.

Results

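The 10 genes studied here license replication origins or start DNA synthesis at them, and they were followed through RNA-seq of cultured mouse bone marrow (BM) and osteosarcoma cells. The genes were chosen by name, and all 10 (Orc1, Orc6, Cdc6, Cdt1, Gmnn, Dbf4, Cdc7, Prim1, Pola1 and Recql4) were found among the 51123 gene IDs of the deposited table. The 37 libraries form 2 sets, each with its own controls, which were analysed separately. Set 1 holds DKO yBM (n = 6, replicates 1 to 3 at 1.5 months and 4 to 6 at 4 months of age), DKO BMT (n = 3), DKO tumor (n = 3) and control BM (n = 4). Set 2 holds 7 groups of 3 libraries, which are DKO yBM, SKO yBM, DKO BMT, SKO BMT, DKO tumor, SKO tumor and control BM, with no age in the labels. In SKO mice Osx1-Cre, which is active in mesenchymal progenitors committed to bone, deletes Trp53, the gene of p53. In DKO mice it deletes the tumor suppressor gene Wwox as well. Both models carry a Rosa26-LSL-tdTomato reporter that the same Cre turns on. yBM is BM of young mice without tumors and BMT is BM taken when a tumor was detected. Controls are named WT in the labels and methods, while the series description has them as mice without Cre. RNA was prepared after 3 passages, when tdTomato-positive cells dominated the cultures of the deleted mice.

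Before a cell copies its DNA, each origin is licensed in G1. The origin recognition complex, of which ORC1 and ORC6 are subunits, binds the origin, and CDC6 and CDT1 then load the MCM2-7 helicase onto the DNA. Geminin, the product of Gmnn, binds CDT1 and blocks a new round of loading once S phase has begun. Licensed origins fire when the kinase CDC7 with its activating subunit DBF4 (together DDK) phosphorylates the loaded helicase. RECQL4, a helicase of the RecQ family, takes part in turning the helicase on, and its human gene is mutated in Rothmund-Thomson syndrome, which carries a risk of osteosarcoma. PRIM1, the catalytic subunit of primase, and POLA1, the catalytic subunit of DNA polymerase alpha, make the primer that starts each new strand. Many of these genes are transcribed in late G1 and S phase under E2F factors, so their RNA is higher in cultures with more cycling cells.

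Levels are TPM, which correct for transcript length and give every library the same total, so the read depth cannot be read from them. Each library had 11001 to 13249 genes at 1 TPM or more, and 5.32% to 32.5% of the TPM was mitochondrial. The targeted genes were checked first. Trp53 was at 1.35% to 23.8% of the control mean in all 18 deleted libraries of set 2 and at 4.66% to 36.1% in DKO yBM and DKO tumor of set 1. For the 3 libraries labelled DKO BMT in set 1 it came to 20.5%, 63.3% and 72.1% of that mean. Replicates 2 and 3, at 50% or more, are counted as going against their label. A bulk value also holds the RNA of any cells without the deletion. Wwox was at 50% of the control mean or more in 5 of 6 libraries labelled DKO yBM, in 1 of 3 labelled DKO BMT and in 1 of 3 labelled DKO tumor of set 1. The controls of set 1 themselves ran from 0.922 to 4.26 TPM for Wwox (mean 2.89). Control BM 3, at 0.922 TPM, lay below DKO BMT 3, at 1.15 TPM or 39.8% of that mean. The 50% limit therefore does not cleanly separate deleted from intact libraries in set 1. All 3 libraries labelled DKO tumor in set 2 had Wwox at 119% to 146% of the control mean, against their label, while DKO yBM and DKO BMT of set 2 were at 21.7% or less. In 2 of 3 SKO BMT libraries Wwox was low although it is not targeted there, with a lowest value of 2.39% of the control mean. The values sum the transcripts of a gene and do not show which exons were read. Group names below are those of the labels, so DKO in set 1 does not stand for a measured loss of Wwox RNA.

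Cells of other types differed between groups, most of all in set 2. The 18 leukocyte markers, among them Ptprc, Csf1r and Lyz2, averaged 8.48 to 8.75 as log2(TPM + 1) in the controls of set 2. They were at 0.46 to 0.68 in DKO tumor, 0.51 to 0.70 in SKO tumor, 0.54 to 0.67 in DKO yBM and 0.43 to 0.65 in SKO yBM, where 13 to 16 of the 18 markers lay below 1 TPM in each library. DKO BMT (0.35 to 4.58) and SKO BMT (0.31 to 5.48) spread more widely, and their ranges also lay below the controls. Leukocyte content and deletion can therefore not be told apart in any comparison of set 2 with its controls. In set 1 the same list was at 4.23 to 7.90 in DKO yBM and 6.96 to 7.72 in DKO BMT, overlapping the 6.15 to 8.26 of its controls. The 3 DKO tumor libraries of set 1 were at 0.53, 0.77 and 6.23. DKO BMT 2 and 3 of set 1, where Trp53 was at 63.3% and 72.1% of the control mean, were at 7.25 and 6.96. DKO BMT 1, with Trp53 at 20.5% of that mean, was the highest of its group at 7.72. Whether cells without the deletion contributed to these Trp53 values was not tested. Lower values of a list can reflect fewer cells of a type or less RNA per cell, which cannot be told apart in bulk samples. Osteoblast markers averaged 2.59 to 8.32 and mesenchymal stromal markers 3.95 to 6.60 over the libraries of both sets. Up to 5 of the 9 osteoblast markers and up to 2 of the 11 mesenchymal stromal markers lay below 1 TPM in a library.

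By mean TPM, Orc6 and Gmnn were the highest of the 10 genes in the controls of both sets, and Recql4 was the lowest. In set 1, 91 of the 120 values of the 10 genes in libraries labelled DKO lay above the highest control library for that gene, and over all genes tested 20.4% of such values did. The median over libraries of the mean log2(TPM + 1) of the 10 genes was 3.42 in DKO yBM (3.26 to 3.68), 3.47 in DKO BMT (3.13 to 4.07) and 3.38 in DKO tumor (3.25 to 4.18), against 2.42 in control BM (1.95 to 3.05). The DKO groups overlapped each other and none overlapped the controls. In set 2, 162 of the 180 values in libraries labelled DKO or SKO lay above the highest control, against 37.7% over all genes tested. There the same mean had a median of 4.35 in the libraries labelled DKO tumor (3.91 to 4.71), 4.07 in DKO yBM (3.89 to 4.16), 3.76 in DKO BMT (3.01 to 3.95), 3.47 in SKO yBM (3.29 to 4.31), 3.19 in SKO tumor (2.57 to 4.13), 3.16 in SKO BMT (3.02 to 3.80) and 2.35 in control BM (1.75 to 2.50). Each group overlapped its neighbour in that order except control BM, which lay below all others.

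**Figure D1:**
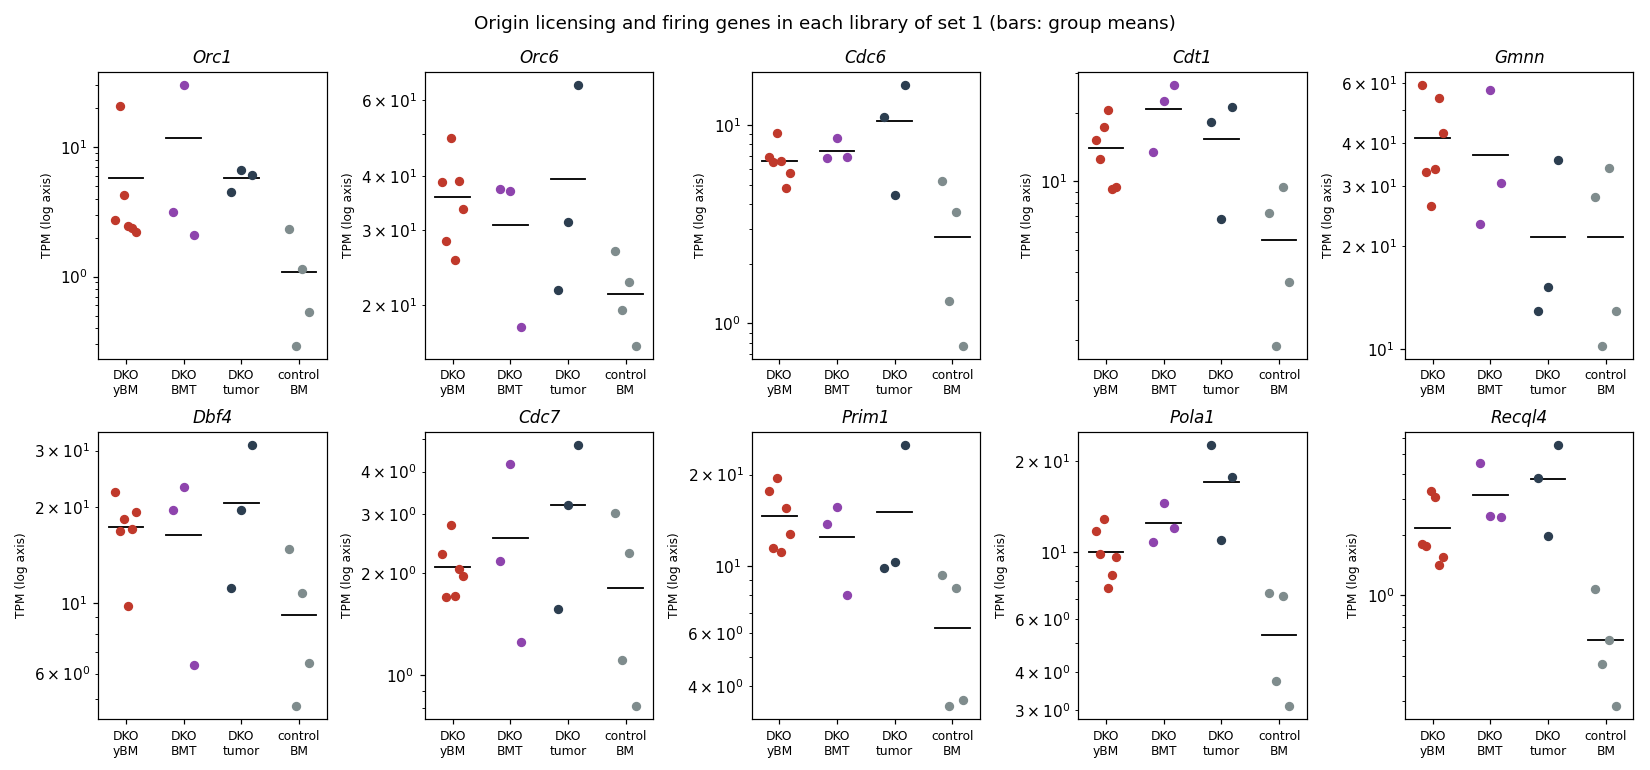
TPM on a log axis for each of the 10 genes in every library of set 1 (DKO yBM, DKO BMT, DKO tumor and control BM, 1 point per library, bars at the group means). Recql4 and Pola1 were above the highest control in all 12 libraries labelled DKO, while Gmnn and Cdc7 overlapped the controls, and Orc1 stood apart in DKO yBM 2 (20.7 TPM) and DKO BMT 2 (30.2 TPM).

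The comparison with controls asks whether the genes already differ in marrow cells before a tumor is found. Every gene was tested with limma on log2(TPM + 1) and called at an adjusted p under 0.05, over 14404 genes in set 1 and 14458 in set 2. In set 1, 3 of the 10 genes were called higher in DKO yBM (Cdt1, Prim1 and Recql4), where 1.67% of all genes tested were called higher. In DKO BMT 2 were called (Cdt1 and Recql4), beside 0.958% of all genes. In DKO tumor 3 were called (Cdc6, Pola1 and Recql4), beside 1.19% of all genes. In that comparison 12 of the 18 leukocyte markers were called lower (median log2 fold change −4.93), and their part in the calls was not tested, while none of the 18 was called in DKO yBM or DKO BMT of set 1. None of the 10 was called lower, and all had a positive log2 fold change in these comparisons, with medians of 1.00 in DKO yBM, 1.05 in DKO BMT and 1.25 in DKO tumor. Over all genes tested these medians were −0.22, −0.06 and −0.09. Median-ratio scaling put the first at −0.02, while the medians of the 10 genes are given without it. The calls of set 1 lie close to the threshold (adjusted p = 0.0258 to 0.0494, limma), and leaving out 1 library gave 0 to 5 called genes in DKO yBM, 0 to 3 in DKO BMT and 0 to 4 in DKO tumor. Without the libraries in which Wwox goes against the label, DKO BMT and DKO tumor keep libraries 2 and 3, and none of the 10 was called in either. DKO yBM keeps library 1 alone there, as DKO BMT does without the 2 in which Trp53 goes against it. Calls lost in this way cannot be told apart from the effect of fewer libraries. DKO yBM of 1.5 months or of 4 months alone also left none.

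In set 2 more genes were called. DKO yBM had 7 called higher (Orc1, Orc6, Cdt1, Dbf4, Prim1, Pola1 and Recql4) where 9.34% of all genes were, and SKO yBM had the same genes without Cdt1, 6 in all, beside 5.78%. DKO BMT had 5 (Orc6, Dbf4, Prim1, Pola1 and Recql4) beside 4.22%, and SKO BMT had 3 (Orc6, Prim1 and Recql4) beside 5.00%. The libraries labelled DKO tumor had 9, all but Gmnn, beside 7.71%, and SKO tumor had 3 (Orc6, Dbf4 and Prim1) beside 2.01%. Median log2 fold changes of the 10 genes were 2.00 in DKO yBM, 1.53 in SKO yBM, 1.46 in DKO BMT, 1.13 in SKO BMT, 2.25 in DKO tumor and 0.97 in SKO tumor. Over all genes tested the medians ran from −0.11 in SKO tumor to 0.24 in SKO yBM, and were 0.06 and 0.01 there after median-ratio scaling. The medians of the 10 genes are given without this scaling. Leaving out 1 library took SKO yBM to 3 called genes (without control column 1 or 2 or SKO yBM 3), DKO BMT to 2 (without control column 1 or DKO BMT 1) and SKO BMT to 1 (without control column 1 or 2 or SKO BMT 1 or 3) or to 5 (without SKO tumor 1 or 2). A fit of only the 2 groups compared left 1 in DKO BMT, 1 in SKO BMT and 0 in SKO tumor. These comparisons share the 3 control libraries of the set, so they are not independent of each other.

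**Figure D2:**
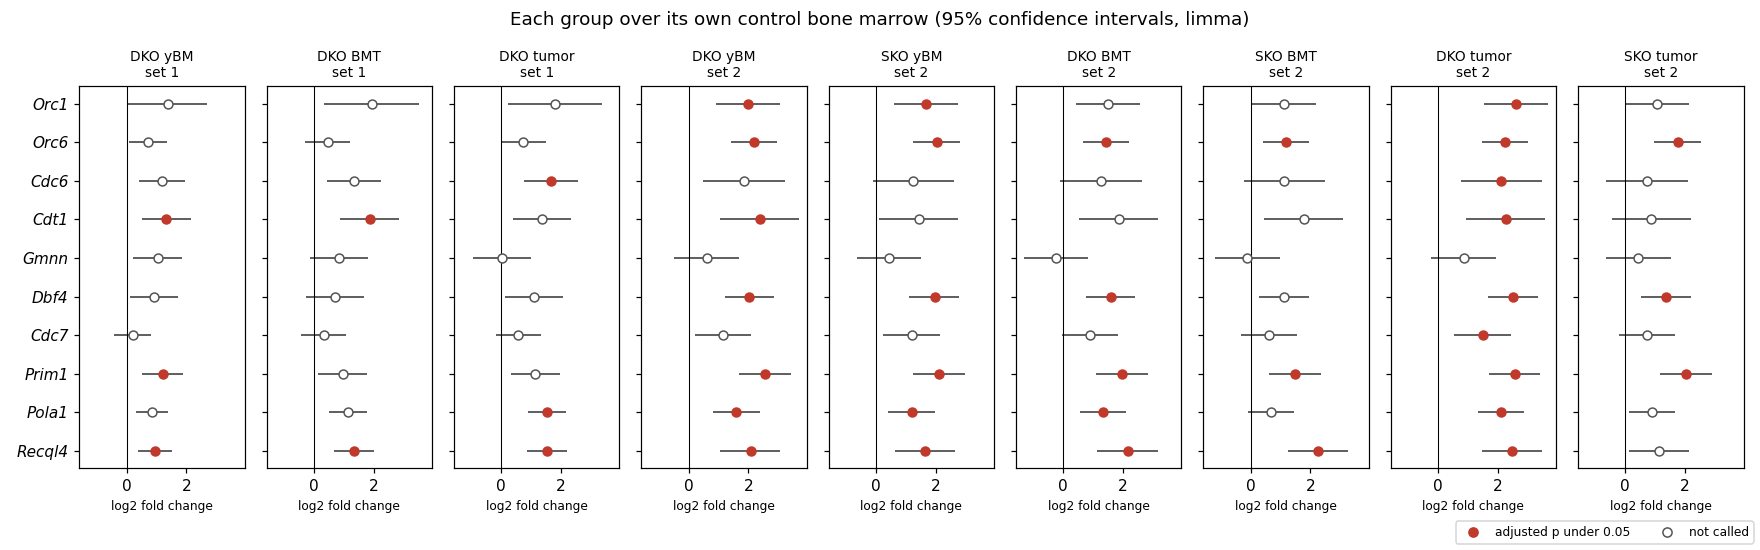
Log2 fold change of each gene in 3 groups of set 1 and 6 groups of set 2 over the control BM of the same set, with 95% confidence intervals from limma (filled points, adjusted p under 0.05). Gmnn is open in all 9 panels, Orc6 and Prim1 are filled in all 6 panels of set 2, and Recql4 is filled in all panels except SKO tumor.

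Orc1 (ENSMUSG00000028587), the largest subunit of the origin recognition complex and the one whose level cycles, was low in the controls. In set 1 it was at 2.21 to 20.7 TPM in DKO yBM (median 2.59), at 3.17, 30.2 and 2.11 TPM in DKO BMT and at 4.50, 6.67 and 6.11 TPM in DKO tumor, against 2.34, 0.292, 1.15 and 0.536 TPM in control BM. DKO yBM 2 and DKO BMT 2 were far above their groups, and only the tumor libraries lay entirely above the controls. Its log2 fold changes of 1.37 to 1.93 in set 1 were not called (adjusted p = 0.158 to 0.171, limma). In set 2 Orc1 was at 8.46, 5.94 and 5.97 TPM in DKO yBM, 3.42, 4.43 and 9.05 TPM in SKO yBM and 18.7, 12.2 and 5.54 TPM in libraries labelled DKO tumor, against 0.569, 1.51 and 0.918 TPM in control BM. All 9 of these libraries were above the controls, and the log2 fold changes were 1.97 ± 0.51 in DKO yBM, 1.66 ± 0.51 in SKO yBM and 2.60 ± 0.51 in DKO tumor (SE, n = 3 each, adjusted p = 0.0115, 0.0369 and 0.00141, limma). SKO tumor was at 6.28, 0.931 and 3.77 TPM, with replicate 2 within the control range, and was not called (adjusted p = 0.218).

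Orc6 (ENSMUSG00000031697), the smallest subunit of the complex, was among the most abundant of the genes. In set 2 it was at 65.5, 55.8 and 40.6 TPM in DKO yBM, 36.5, 40.6 and 70.8 TPM in SKO yBM and 47.9, 75.8 and 45.6 TPM in libraries labelled DKO tumor, against 6.28, 13.2 and 15 TPM in control BM. All 18 deleted libraries lay above the controls, and Orc6 was called in all 6 groups, with log2 fold changes of 1.18 (SKO BMT, adjusted p = 0.0423) to 2.24 (DKO tumor, adjusted p = 0.000271). In set 1 the control level was higher, at 16.1 to 26.8 TPM, 3 of the 12 libraries labelled DKO fell within it, and the fold changes of 0.46 to 0.73 were not called.

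Cdc6 (ENSMUSG00000017499), the loading ATPase, was at 6.54 to 9.07 TPM in DKO yBM of 1.5 months and 4.79 to 6.57 TPM in that of 4 months, at 6.80, 8.60 and 6.89 TPM in DKO BMT and at 11, 4.44 and 15.9 TPM in DKO tumor of set 1, against 5.23, 1.29, 3.63 and 0.772 TPM in control BM. DKO BMT and the 3 DKO yBM libraries of 1.5 months lay entirely above the controls, while DKO yBM of 4 months and DKO tumor overlapped them. Cdc6 was called in DKO tumor of set 1 (log2 fold change 1.65 ± 0.42, SE, adjusted p = 0.0467, limma) and in set 2 only in the libraries labelled DKO tumor, which were at 16, 17.4 and 7.85 TPM against 1.36, 1.97 and 3.78 TPM in control BM (2.12 ± 0.65, SE, adjusted p = 0.0318). Part of its sequence is not unique. Of the stretches of 31 bases in Cdc6 transcripts, 8.78% also occur in transcripts of the gene model Gm9430, so some Cdc6 reads may have been split, while the share was 4.67% or less for each of the others and 0 for Cdt1 and Recql4.

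Cdt1 (ENSMUSG00000006585) and Gmnn (ENSMUSG00000006715), are the loader and its inhibitor, and whether their changes differed was not tested. In set 1 Cdt1 was at 9.27 to 20.6 TPM in DKO yBM (median 13.8), 13.4, 22.6 and 26.5 TPM in DKO BMT and 18.2, 6.82 and 21.1 TPM in DKO tumor, against 7.22, 1.89, 9.39 and 3.60 TPM in control BM. DKO BMT lay entirely above the controls, and the log2 fold change was 1.86 ± 0.46 there and 1.32 ± 0.39 in DKO yBM (SE, adjusted p = 0.0465 and 0.0494, limma). In set 2 Cdt1 was at 29.5, 24.1 and 39.4 TPM in DKO yBM, 11.9, 12.8 and 23.5 TPM in SKO yBM and 35.1, 43.9 and 14.1 TPM in libraries labelled DKO tumor, against 1.85, 6.80 and 8.95 TPM in control BM. It was called in DKO yBM (2.38 ± 0.63, SE, adjusted p = 0.0133) and DKO tumor (2.26 ± 0.63, SE, adjusted p = 0.0187), and among deleted libraries only SKO tumor 2, at 2.78 TPM, was within the control range.

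Gmnn was called in none of the 9 comparisons. In set 2 it was at 43.2, 38.4 and 23.8 TPM in DKO yBM, 20.5, 24.6 and 55.3 TPM in SKO yBM, 26.6, 26.3 and 8.82 TPM in DKO BMT, and 40.2, 11.7 and 17.9 TPM in SKO BMT, against 16.6, 22.5 and 28.7 TPM in control BM. Each of these groups overlapped the controls, while the libraries labelled DKO tumor, at 32.2, 55.2 and 38.6 TPM, lay above them, and 9 of the 18 deleted libraries were above the highest of them. The log2 fold changes over control ran from −0.25 (95% confidence interval −1.33 to 0.84, DKO BMT) to 0.86 (−0.22 to 1.94, DKO tumor), so a change of the size seen for other members lies inside some of these intervals. In set 1 the value in DKO yBM was 1.04 (0.22 to 1.86, adjusted p = 0.101, limma) and that in DKO tumor 0.02 (−0.95 to 0.99).

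The ratio of Cdt1 to Gmnn TPM within a library describes the pair without the scale of the library. In set 1 it had a median of 0.318 in DKO yBM (0.171 to 0.659), 0.577 in DKO BMT (0.396 to 0.869) and 0.591 in DKO tumor (0.448 to 1.41), against 0.269 in control BM (0.185 to 0.279). DKO BMT and DKO tumor lay entirely above the controls and DKO yBM overlapped them. In set 2 the median was 0.684 in DKO yBM, 0.521 in SKO yBM, 0.943 in DKO BMT, 0.889 in SKO BMT, 0.796 in libraries labelled DKO tumor and 0.552 in SKO tumor, against 0.302 in control BM (0.111 to 0.312). SKO tumor 2, at 0.0901, was the only deleted library of set 2 that did not lie above its controls, and DKO BMT 3 had the highest ratio, 2.58, with Gmnn at its lowest.

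The 2 subunits of DDK, the kinase that fires origins, differed in level and in calls, and whether their changes differed was not tested. Dbf4 (ENSMUSG00000002297), the activator, was at 26.5, 29.9 and 25.0 TPM in DKO yBM, 17.3, 25.9 and 37.2 TPM in SKO yBM and 29.1, 56.6 and 33.6 TPM in libraries labelled DKO tumor of set 2, against 4.64, 6.99 and 6.15 TPM in control BM. All 18 deleted libraries of that set were above the controls, and Dbf4 was called in 5 of 6 groups, with 2.03 ± 0.40 in DKO yBM and 2.51 ± 0.40 in DKO tumor (log2, SE, adjusted p = 0.0014 and 0.000159, limma). In SKO BMT, at 16.9, 11.3 and 14.2 TPM, it was not called (1.13 ± 0.40, SE, adjusted p = 0.0669). Cdc7 (ENSMUSG00000029283), the kinase itself, reached at most 6.21 TPM in any library. It was called only in the libraries labelled DKO tumor of set 2, at 4.54, 6.21 and 3.54 TPM against 0.885, 1.15 and 1.02 TPM in control BM (1.49 ± 0.45, SE, adjusted p = 0.0284). Of the 18 deleted libraries of set 2, 16 had Cdc7 above the highest control. Its mean was 3.61 TPM in DKO yBM and 3.84 TPM in SKO yBM, against 1.02 TPM in control BM, and neither was called. The log2(TPM + 1) scale understates changes at such low levels. In set 1, 9 of 12 libraries labelled DKO had Cdc7 within the control range of 0.811 to 3.01 TPM, and its log2 fold changes of 0.20 to 0.57 were the smallest of the 10 genes in DKO yBM and DKO BMT. Dbf4 in set 1 was at 9.79 to 22.2 TPM in DKO yBM, against 4.75 to 14.8 TPM in control BM, and was not called (0.91 ± 0.38, SE, adjusted p = 0.139).

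Prim1 (ENSMUSG00000025395) and Pola1 (ENSMUSG00000006678), which begin synthesis, were higher in nearly every library. Prim1 was at 11.1 to 19.5 TPM in DKO yBM (median 14.1), 13.7, 15.6 and 7.98 TPM in DKO BMT and 9.80, 10.3 and 25.0 TPM in DKO tumor of set 1, against 9.33, 3.44, 8.45 and 3.61 TPM in control BM. DKO BMT 3 alone was within the control range, and Prim1 was called in DKO yBM (1.2 ± 0.33, SE, adjusted p = 0.0402, limma). In set 2 it was at 32.6, 24.6 and 23.5 TPM in DKO yBM, 15.6, 16.9 and 28.1 TPM in SKO yBM, 25.5, 19.7 and 10.6 TPM in DKO BMT and 16.1, 9.59 and 11.7 TPM in SKO BMT, against 1.91, 4.29 and 5.97 TPM in control BM. All 18 deleted libraries were above the controls and Prim1 was called in all 6 groups, from 1.47 ± 0.41 in SKO BMT (SE, adjusted p = 0.0243) to 2.56 ± 0.41 in DKO tumor (SE, adjusted p = 0.000206).

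Pola1 was above the highest control in all 12 libraries labelled DKO in set 1. It was at 7.63 to 12.9 TPM in DKO yBM (median 9.76), 10.8, 14.5 and 12 TPM in DKO BMT and 22.6, 11 and 17.7 TPM in DKO tumor, against 7.34, 3.75, 7.14 and 3.09 TPM in control BM. Only the tumor libraries passed the test (1.53 ± 0.30, SE, adjusted p = 0.0258, limma), while DKO yBM had 0.85 ± 0.26 (SE, adjusted p = 0.0539) and DKO BMT 1.15 ± 0.30 (SE, adjusted p = 0.0584). In set 2 it was at 15, 24.3 and 17.0 TPM in libraries labelled DKO tumor, 10.6, 5.14 and 7.16 TPM in SKO tumor and 11.1, 13.1 and 13.7 TPM in DKO yBM, against 2.49, 3.69 and 4.57 TPM in control BM. It was called in 4 of the 6 groups, all 3 DKO groups and SKO yBM.

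Recql4 (ENSMUSG00000033762) was the one gene called in all 3 comparisons of set 1. It was at 1.41 to 3.30 TPM in DKO yBM (median 1.78), 4.49, 2.47 and 2.45 TPM in DKO BMT and 3.81, 1.96 and 5.53 TPM in DKO tumor, against 1.08, 0.457, 0.6 and 0.284 TPM in control BM. No library labelled DKO overlapped the controls, and the log2 fold changes were 0.96 ± 0.27, 1.35 ± 0.32 and 1.52 ± 0.32 (SE, adjusted p = 0.0429, 0.0416 and 0.0311, limma). In set 2 it was at 4.83, 4.66 and 4.68 TPM in DKO yBM, 2.73, 2.06 and 5.64 TPM in SKO yBM, 3.94, 3.45 and 9.06 TPM in DKO BMT and 4.72, 7.90 and 4.55 TPM in SKO BMT, against 0.293, 0.429 and 0.381 TPM in control BM. The tumor groups were at 9.57, 8.15 and 3.62 TPM in libraries labelled DKO tumor and 4.96, 0.363 and 2.26 TPM in SKO tumor, where replicate 2 lay within the control range. It was called in 5 of 6 groups, with 2.48 ± 0.48 in DKO tumor (SE, adjusted p = 0.00119), and SKO tumor did not pass (1.12 ± 0.48, SE, adjusted p = 0.152). Since its mean in the controls was below 1 TPM in both sets (0.604 in set 1 and 0.368 in set 2), the log2(TPM + 1) scale understates its change.

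**Figure D3:**
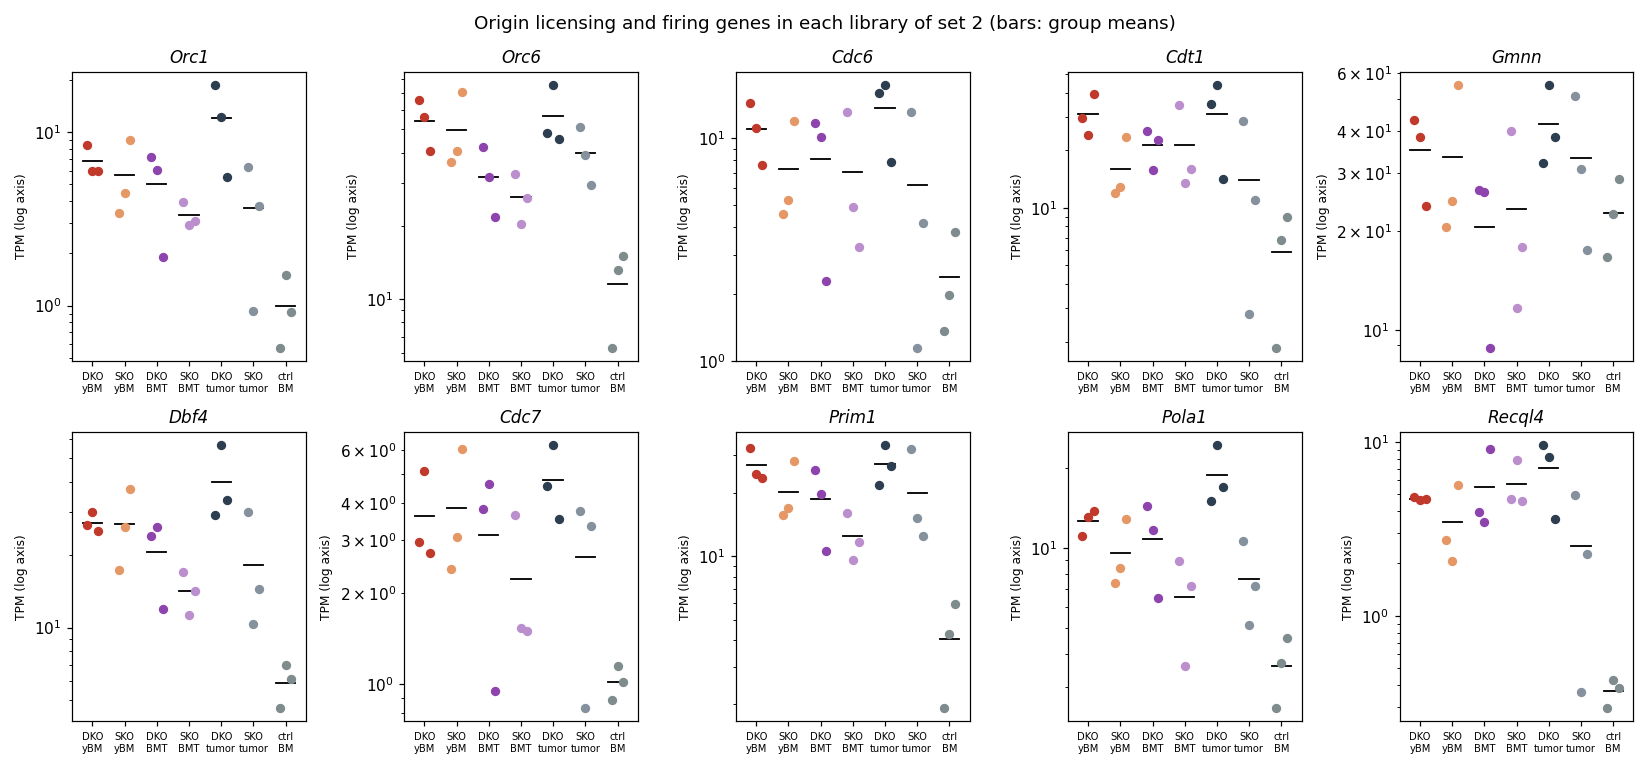
TPM on a log axis for each of the 10 genes in every library of set 2, with DKO beside SKO at each stage and control BM at the right (1 point per library, bars at the group means). SKO tumor 2 is low for Orc1 (0.931 TPM), Cdc6 (1.14 TPM), Cdt1 (2.78 TPM) and Recql4 (0.363 TPM), and Orc6, Dbf4 and Prim1 lie above the controls in all 18 deleted libraries.

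Comparing DKO with SKO at the same stage asks what the added loss of Wwox goes with, and here both arms had p53 deleted. In BMT this contrast is not met in 2 of 3 SKO libraries, since SKO BMT 2 and 3 had Wwox at 2.84% and 2.39% of the control mean and the DKO BMT libraries at 0.458% to 8.36%. None of the 10 genes was called between DKO and SKO in yBM, in BMT or in tumor cells by limma, and in yBM and BMT none had an unadjusted p under 0.05. Few genes of any kind were called higher in these comparisons, at 0.0138% of all genes tested in yBM, 0 in BMT and 0 in tumor cells. In yBM the log2 fold changes of DKO over SKO ran from −0.04 (Cdc7) to 0.94 (Cdt1, 95% confidence interval −0.38 to 2.26), and Cdt1 was the one gene whose 3 DKO yBM libraries, at 24.1 to 39.4 TPM, all lay above the 3 of SKO yBM, at 11.9 to 23.5 TPM, as did those of 6.72% of all genes tested. In BMT they ran from −0.14 (Gmnn) to 0.66 (Pola1, −0.12 to 1.43), and for Orc6 the interval was −0.53 to 1.02. These intervals leave room for 2-fold changes for most of the genes.

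In tumor cells all 10 log2 fold changes of DKO over SKO were positive, with a median of 1.19, against a median of 0.25 over all genes tested. Median-ratio scaling put the latter at −0.04, and it also moves the 10 genes, whose median is given without it. Of the 10, 6 had an unadjusted p under 0.05, as did 8.39% of all genes tested, and the smallest adjusted p of the 10 was 0.585 (limma). The highest values were 1.55 ± 0.51 for Orc1, 1.40 ± 0.63 for Cdt1, 1.38 ± 0.65 for Cdc6, 1.36 ± 0.48 for Recql4, 1.22 ± 0.37 for Pola1 and 1.16 ± 0.40 for Dbf4 (log2, SE, n = 3 each). Pola1 was the only one of the 10 whose libraries did not overlap between the groups, as was true of 4.80% of all genes tested in the same direction. SKO tumor 2 stood apart in its group, with the fewest genes at 1 TPM of all libraries (11001), 26.8% of TPM mitochondrial and proliferation markers at 3.57. Without it the median of the 10 genes was 0.67 (0.31 to 1.02) and that of all genes −0.03, and the smallest adjusted p was 1.0 (limma). The libraries labelled DKO tumor are those in which Wwox goes against the label, so a direction read from them belongs to the label and not to a measured loss of Wwox RNA. Whether the DKO to SKO difference was larger in tumor cells than in yBM was tested as an interaction, and none of the 10 was called (log2 differences 0.10 to 1.24, adjusted p = 0.869 to 0.981, limma).

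**Figure D4:**
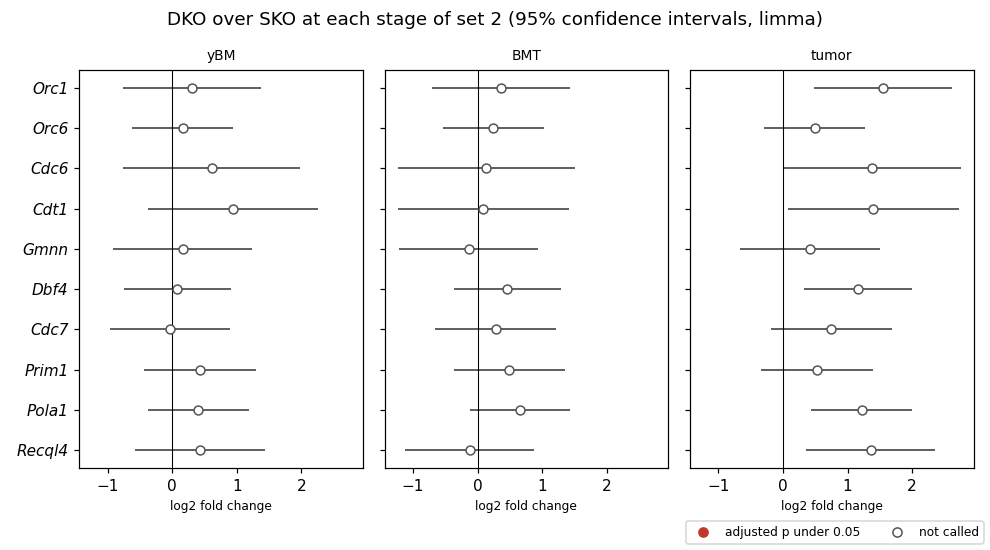
Log2 fold change of each gene in DKO over SKO cells of yBM, BMT and tumor in set 2, with 95% confidence intervals from limma (n = 3 libraries a group). No gene is called, the points of yBM and BMT lie between −0.14 and 0.94, and those of tumor cells between 0.42 and 1.55.

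Stages and ages were compared within a genotype label. Libraries labelled DKO tumor in set 2 had Wwox at 119% to 146% of the control mean, and DKO BMT and DKO yBM at 21.7% or less. Stage and Wwox RNA can therefore not be told apart where DKO tumor of set 2 is compared. SKO BMT 2 and 3 had Wwox at 2.84% and 2.39% of that mean, and SKO tumor and SKO yBM at 77.6% or more. None of the 10 genes was called between tumor and BMT, tumor and yBM, or BMT and yBM in either set, or between DKO yBM of 4 and of 1.5 months (limma). At an unadjusted p under 0.05 the counts were 5 in libraries labelled DKO tumor over DKO BMT of set 2, beside 3.91% of all genes tested. They were 2 in DKO tumor over DKO yBM of set 1 (15.6% of all genes), 1 in SKO tumor over SKO BMT (11.4%), 1 in SKO BMT over SKO yBM (7.59%) and 0 in the others, so these last counts are near the share of all genes. In DKO tumor over DKO yBM of set 1, 17 of the 18 leukocyte markers also had an unadjusted p under 0.05 (median log2 fold change −4.17). A legend of the study calls the BMT cells of DKO mice paired with the tumors, while the labels tie no library to a mouse, so the fits treat these libraries as independent. At 4 months 9 of 10 genes had a negative log2 fold change against 1.5 months, with a median of −0.26. Over all genes the median was −0.11, or 0.01 after median-ratio scaling, which also moves the 10 genes, whose median is given without it. Orc1 was at 2.45, 2.39 and 2.21 TPM at 4 months, against 2.73, 20.7 and 4.24 TPM at 1.5 months, and Pola1 at 7.63, 8.37 and 9.64 TPM, against 11.7, 9.88 and 12.9 TPM, and in both genes the ages did not overlap, as in 4.67% of all genes tested in the same direction. In set 2 all 10 genes had a positive value in the libraries labelled DKO tumor over DKO BMT (median 0.80, over all genes 0.01), and 4 did not overlap between the groups, against 3.33% of all genes tested. DKO BMT 3 stood apart with 11372 genes at 1 TPM and proliferation markers at 3.52, and without it the median of the 10 genes was 0.53 (all genes −0.12). In SKO cells the tumor over BMT median was 0.17, with Recql4 the lowest at −1.14 ± 0.48 (SE, adjusted p = 0.426, limma).

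Other genes of replication initiation were taken from a list of 40, all of which passed the filter in both sets. In set 1 the counts called higher were 7 of 40 in DKO yBM, 4 in DKO BMT and 6 in DKO tumor, with none lower and median log2 fold changes of 0.70, 0.80 and 1.14. Of all genes tested, 1.67%, 0.958% and 1.19% were called higher there. In set 2 the counts were 15 in DKO yBM, 11 in SKO yBM, 4 in DKO BMT, 3 in SKO BMT, 20 in libraries labelled DKO tumor and 1 in SKO tumor, with none lower. Of all genes tested, 9.34%, 5.78%, 4.22%, 5.00%, 7.71% and 2.01% were called higher in these groups, in the same order. The counts in SKO BMT and SKO tumor are near those shares. The 3 genes of smallest p in DKO yBM of set 1 were Mcm7 and Mcm5, of the helicase, and Cdc45, which joins it when an origin fires. Mcm7 averaged 60.5 TPM in DKO yBM and 25.5 TPM in control BM (log2 fold change 1.24 ± 0.30, SE, adjusted p = 0.0253, limma), Mcm5 39.9 and 15.5 TPM (1.50 ± 0.39, SE, adjusted p = 0.0338) and Cdc45 15.3 and 6.47 TPM (1.21 ± 0.31, SE, adjusted p = 0.0346). The 3 of largest p were Orc4 and Orc5, subunits of the origin recognition complex, and Donson, which helps to assemble the active helicase. Orc4 averaged 33.3 TPM in DKO yBM and 31.9 TPM in control BM (log2 fold change 0.03 ± 0.32, SE), Orc5 10.9 and 11.2 TPM (−0.03 ± 0.18, SE) and Donson 4.12 and 4.10 TPM (0.03 ± 0.21, SE). In set 2 none of Orc4, Orc5 and Donson was called in any of the 6 groups, while Mcm7 was called in all but SKO tumor. Between DKO and SKO tumor cells 39 of the 40 genes had a positive value (median 1.12) and none was called. Over all genes tested, 9925 of 14458 had a positive value there, with a median of 0.25.

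Across libraries the 10 genes varied together. All 45 pairs were positively correlated in both sets, with Pearson r of log2(TPM + 1) from 0.22 to 0.94 over the 16 libraries of set 1 (median 0.63) and from 0.11 to 0.97 over the 21 of set 2 (median 0.79). These are descriptions over libraries that include the groups compared above. Gmnn was the least like the others, with an r of 0.56 in set 1 and 0.60 in set 2 to the mean of the other members, and Cdc6 (0.91 and 0.92) and Prim1 (0.93 and 0.91) were close to it in both sets. Orc1 correlated at 0.65 in set 1, where 2 libraries stood apart, and at 0.93 in set 2. Outside the 10, the 5 genes most like their mean among 13585 compared, by the lower r of the 2 sets, were Oip5 (0.95 and 0.96), Dtl (0.94 and 0.97), Ccna2 (0.94 and 0.94), Cdca8 (0.94 and 0.95) and Ercc6l (0.95 and 0.94). Dtl encodes the substrate receptor of the ligase that degrades CDT1 in S phase, Ccna2 encodes cyclin A2, and Oip5, Cdca8 and Ercc6l encode proteins of mitosis.

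The mean of the 10 genes moved with proliferation markers. With the mean of 8 such markers (among them Mki67, Top2a and Pcna) its r was 0.96 in both sets, and with the 40 other initiation genes it was 0.96 in set 1 and 0.97 in set 2. The proliferation markers were at 4.84 to 5.27 in DKO yBM, 4.67 to 5.82 in DKO BMT and 4.74 to 5.76 in DKO tumor, against 3.22 to 4.93 in control BM of set 1 (mean log2(TPM + 1)). In set 2 they were at 5.51 to 5.68 in DKO yBM, 4.79 to 5.99 in SKO yBM, 3.52 to 5.82 in DKO BMT, 3.99 to 5.75 in SKO BMT, 5.65 to 6.46 in libraries labelled DKO tumor and 3.57 to 5.79 in SKO tumor, against 3.04 to 3.72 in control BM. In set 1 the 2 control libraries lowest in the 10 genes (replicates 2 and 4, at 1.95 and 1.99) were also lowest in these markers, at 3.68 and 3.22. Among deleted libraries of set 2, SKO tumor 2 (3.57) and DKO BMT 3 (3.52) lay within the control range of these markers, with the 10 genes at 2.57 and 3.01. Whether the share of cycling cells accounts for the differences of the 10 genes was not tested. With leukocyte markers the r of the mean was −0.33 in set 1 and −0.69 in set 2.

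**Figure D5:**
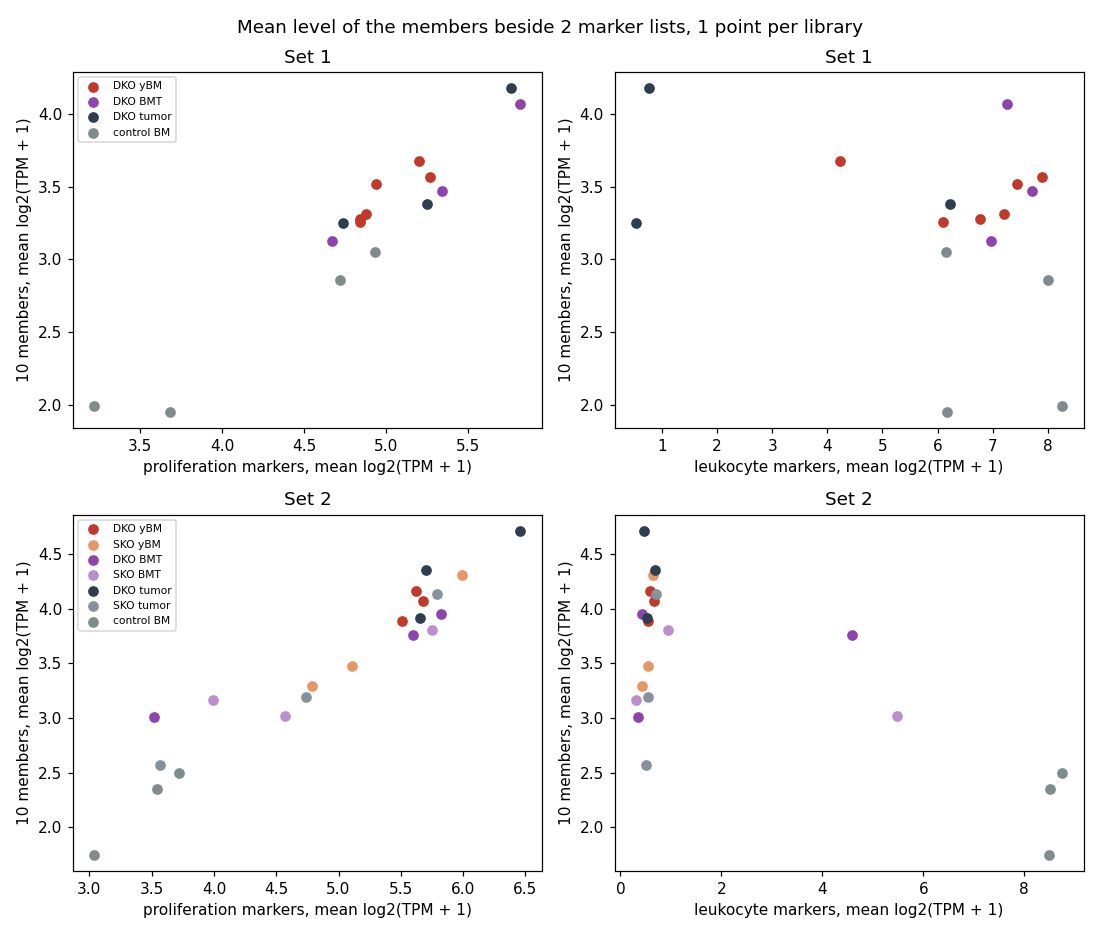
Mean log2(TPM + 1) of the 10 genes (y axis) against that of 8 proliferation markers (left) and 18 leukocyte markers (right), 1 point per library, set 1 above and set 2 below, coloured by group. The members follow the proliferation markers in both sets (r = 0.96 each), and in set 2 the controls stand apart at leukocyte levels of 8.48 to 8.75.

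Promoter sequence was looked at because the genes varied together. RefSeq promoters of GRCm38.p6, from 250 bases before to 50 after a start, were given for 8 of the 10 genes (9 promoters, 2 of them for Cdc7), and none was given for Gmnn and Recql4. They were searched on both strands for 4 E2F words (TTTGGCGC, TTTCCCGC, TTTGCCGC and TTTCGCGC), for the E-box CACGTG, which Myc binds, and for the CCAAT box (CCAAT). An E2F word was found for 4 of the 8 genes (4 of their 9 promoters) and in 2.26% of all 32851 promoters of the table. A CCAAT box was found for 4 of 8 genes (Orc1, Orc6, Prim1 and Pola1). It was in 4 of 9 promoters (44.4%), near the 37.4% of all promoters. The E-box was found for none of the 8 genes and in 7.15% of all promoters. The E2F words began 27 bases before the start in Orc1, 138 before it in Cdc6 and in Pola1, and 33 after it in Cdt1. A match describes these letters and not a site in use, and their absence says only that these words are not in this window.

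The stretches that hold the E2F words are shown 5′ to 3′ with the word in capitals. They are 60 bases long, ending 1 base before the start in Orc1 and 105 bases before it in Cdc6 and Pola1, and 30 bases long for Cdt1, from 21 to 50 bases after its start. They lie at chr4:108579394-108579453 on the plus strand for Orc1, chr11:98907987-98908046 on the plus strand for Cdc6, chrX:93632260-93632319 on the minus strand for Pola1 and chr8:122568035-122568064 on the plus strand for Cdt1 (GRCm38.p6). The word stands on the opposite strand of the promoter in the first 3, so it reads there as its reverse complement.
Orc1: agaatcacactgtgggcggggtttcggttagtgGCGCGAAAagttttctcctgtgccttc
Cdc6: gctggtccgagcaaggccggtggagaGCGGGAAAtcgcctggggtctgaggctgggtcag
Pola1: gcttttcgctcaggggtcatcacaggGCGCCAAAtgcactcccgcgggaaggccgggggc
Cdt1: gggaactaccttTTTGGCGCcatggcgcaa

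Orc6 and Prim1, the genes called in all 6 comparisons of set 2, had none of the E2F words. Each had a CCAAT box, a word that 37.4% of all promoters hold, so its presence does not mark out these genes. Orc1 and Pola1 had a CCAAT box as well as an E2F word. The stretches below show the boxes of Orc6 and Prim1 in capitals. They are 60 bases long and end 23 bases before the start in Orc6 and 1 base before it in Prim1. That of Orc6 lies at chr8:85299550-85299609 and that of Prim1 at chr10:128015155-128015214, both on the plus strand (GRCm38.p6), and in Orc6 the box reads as its reverse complement.
Orc6: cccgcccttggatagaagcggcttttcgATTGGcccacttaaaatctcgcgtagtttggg
Prim1: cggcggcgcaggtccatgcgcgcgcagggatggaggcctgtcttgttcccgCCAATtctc

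Scaling changed how all genes split into higher and lower calls, but no direction of a called member. Of the genes called in DKO yBM of set 1, 21.4% were higher as reported, 59.1% after median-ratio scaling and 63.6% after quantile normalization. For DKO BMT of set 1 these shares were 40.7%, 57.3% and 61.7%, and for DKO tumor of set 1 they were 35%, 57.6% and 67.3%. In set 2 the share was 35.1% for DKO BMT (38.2% after median-ratio scaling and 53.5% after quantile normalization). In the same order it was 37.4% (37% and 55.4%) for SKO BMT and 17.4% (33.3% and 45.8%) for SKO tumor. Median-ratio scaling lowered it in the other groups, with 47.9% (40.7% and 56.3%) for DKO yBM, 42.6% (33.5% and 51.7%) for SKO yBM and 44.9% (39.7% and 53.8%) for DKO tumor.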

How the data were processed

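RNA of cultured mouse BM and tumor cells was sequenced by the authors with a stranded poly-A kit, trimmed with Trim Galore (0.6.1 in the submitters' processing notes), checked with FastQC and quantified with salmon. The deposited values are TPM per gene, made by the authors, which sum to the same total in each library and keep no depth, so no counting error can be given. The build in the submitters' notes is mm39, while gene names and promoters came from tables of GRCm38.p6, matching 48246 IDs and leaving 2877 without a symbol. The columns of the 3 controls of set 2 were matched to their group only.

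In each set, genes that reached 1 TPM in 3 or more libraries entered a limma fit (version 3.58.1, R version 4.3.3) of log2(TPM + 1) over all groups, with trend and no covariates, and p-values had Benjamini-Hochberg adjustment over all genes tested (14404 and 14458). All 10 members passed the filter in both sets. Calls needed an adjusted p below 0.05 and no minimum fold. On this scale the change of a low gene comes out too small. The fit was tested on simulated data. The methods count 4 control mice, 6 young mice without tumors and 6 with tumors for 1 RNA-seq experiment, while a legend pairs its tumor and BMT cells, so it is unclear whether the 6 tumor and BMT libraries of set 1 come from separate mice. No numbers of mice were found for set 2, where a legend gives n = 3 for SKO and DKO yBM cells without naming the unit. Whether its p-values reflect spread between mice is therefore unclear. Its SKO BMT libraries differed widely in Wwox (11.8, 0.102 and 0.0857 TPM).

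The 10 members, the other lists and the tests were chosen with earlier results of these data known. Named genes are the members, of 40 other initiation genes the 3 with the smallest and the 3 with the largest p in DKO yBM of set 1, the 5 genes most correlated with the members' mean, and Wwox and Trp53. Marker lists were leukocyte, osteoblast, mesenchymal stromal, endothelial (0.41 to 1.96 as mean log2(TPM + 1) in all libraries) and proliferation genes. Same-numbered libraries deviated together only between DKO BMT and SKO BMT of set 2 (r 0.29 to 0.38 for the 3 pairs), where a fit with the replicate number as a block also called none of the members. Alternatives were a pseudocount of 0.1, no filter, only the 2 groups compared, the replicate block, 2 other scalings, leaving out each library, leaving out libraries in which Wwox or Trp53 was at 50% of the control mean or more against the label, each age of DKO yBM alone, and motif searches in the 250 bases before the start.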

Additional observations from a re-analysis of the deposited data

Results flagged for a closer look

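Orc1 in set 1 had a library far from the rest of its group. DKO yBM 2 was at 20.7 TPM, while the other 5 DKO yBM libraries were at 2.21 to 4.24 TPM, a gap of 0.89 of the range of the group, above Dixon's 95% critical value for 6 values. Of the 20 sets of values tested in this way (10 genes in DKO yBM and in control BM of set 1), this was the only 1, and chance alone flags about 1 in 20. DKO BMT 2 of set 1, with 30.2 TPM against 3.17 and 2.11 TPM in the other 2 libraries of its group, could not be tested with 3 values.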

How the results depend on the processing

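Leaving out 1 library at a time gave these ranges of members called higher over control. In set 1 they were 0 to 5 for DKO yBM, 0 to 3 for DKO BMT and 0 to 4 for DKO tumor. In set 2 they were 6 to 9 for DKO yBM, 3 to 7 for SKO yBM, 2 to 7 for DKO BMT, 1 to 5 for SKO BMT, 6 to 9 for DKO tumor and 2 to 4 for SKO tumor. Counts of 0 came without control BM 2 or 4, or DKO yBM 1, 3, 5 or 6 for DKO yBM of set 1 and without control BM 4 or DKO tumor 3 for DKO tumor of set 1. For DKO BMT of set 1 they came without control BM 2 or 4, any of its own 3 libraries, or DKO yBM 1, 2, 5 or 6, and it went to 1 without control BM 1 or 3 or DKO yBM 3 or 4. DKO yBM went to 1 without its library 2 or 4 and to 5 without DKO tumor 2, and DKO tumor to 1 without control BM 3. In set 2, SKO yBM went to 3 without control column 1 or 2 or its own library 3, DKO BMT to 2 without control column 1 or its own library 1, SKO BMT to 1 without control column 1 or 2 or its own library 1 or 3, and SKO BMT to 5 without SKO tumor 1 or 2. The spread was pooled over all groups of a set in each of these fits.

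Other settings moved counts as follows. With no filter, set 1 had 0 for DKO yBM, 0 for DKO BMT and 1 for DKO tumor, where more genes were tested (30034). With only the 2 groups compared, set 1 had 6 for DKO yBM, 0 for DKO BMT and 0 for DKO tumor, and set 2 had 1 for DKO BMT, 1 for SKO BMT and 0 for SKO tumor. Median-ratio scaling gave 5 for DKO yBM of set 1, 5 for SKO BMT and 5 for SKO tumor. Quantile normalization gave 5 for DKO yBM and 4 for DKO BMT of set 1, and 9 for DKO BMT, 7 for SKO BMT and 6 for SKO tumor of set 2. Without libraries whose Wwox goes against the label, 0 were called in DKO BMT and DKO tumor of set 1, each left with libraries 2 and 3. That setting leaves DKO yBM with library 1 alone. Leaving out those whose Trp53 goes against it does the same for DKO BMT, so no count is given for either. DKO yBM of 1.5 months alone gave 0, and of 4 months alone 0. The cause was not tested, beyond the fewer libraries or the more genes named here. With the replicate number as a block, 0 members were called in DKO yBM, DKO BMT and DKO tumor of set 1. Same-numbered libraries did not deviate together there (r −0.28 to 0.28), and the block changed no other count. In set 2 no blocked comparison with control could be made because the control columns carry no number, and DKO tumor of set 2 has no value without libraries whose Wwox goes against the label, since all 3 are dropped. No called member reversed direction under any setting, and the E2F words were in 3 of 8 genes in the 250 bases before the start, against 4 of 8 in the whole window.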
